A study of Mus musculus with 12 samples.

Results

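The spermatogonial identity genes are 35 genes by which spermatogonial stem cells, their progenitors and their first differentiating descendants are commonly recognized. They were found by gene symbol in the transcript table of testicular aging, and a gene's reads were the sum over its transcripts of class =, c, j or o, that is, transcripts that match a RefSeq transcript, are contained in it, share a splice junction with it or overlap its exons on the same strand. All 35 were present, with 59 of the 71967 transcripts and 35 of the 24516 genes so defined. Total RNA sequencing had been performed on whole testes of 12 untreated C57BL/6 males without a transgene or deletion, 3 mice at each of the ages 3M, 6M, 12M and 18M (3, 6, 12 and 18 months), after removal of ribosomal RNA. Each library came from its own mouse, but it is not known whether the mice of an age were littermates. The p-values set changes with age against the spread between these mice. A litter shared within an age could not be told apart from age. The libraries held 50924104 to 71803379 estimated reads, of which the 35 genes took 0.0920% to 0.0977%, and libraries of the same age correlated across genes with a Pearson r of 0.994 to 0.996 on log2(CPM + 1). In whole-testis RNA, fewer cells of a type and less RNA per cell cannot be told apart.

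Spermatogonia lie on the basement membrane of the seminiferous tubule, where Sertoli cells and their secreted factors keep a few of them as stem cells. Transcription factors and RNA-binding proteins hold the stem and progenitor state, integrins and other surface proteins tie the cells to the niche, and a later group of factors commits them to differentiation and, after further divisions, to meiosis. In the adult testis these cells are far outnumbered by spermatocytes and spermatids.

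The sequences printed here are tied to the values that follow. The first 3 are promoter windows (250 bases before and 50 after the annotated start, RefSeq, GRCm38.p6, the build also named mm10), with each E-box CANNTG, the core site of basic helix-loop-helix factors, in capitals. The window of Itgb1 is shown because this gene had the lowest p-value with age, that of Sohlh2 because an assembled transcript spans it, and that of Dmrtb1 because this gene had the highest level and little depth on the exon behind the window. RefSeq gives Dmrtb1 another window, chr4:107683540-107683839, over the end of that exon, which also held 3 matches and is not printed.
Itgb1, chr8:128685404-128685703, plus strand: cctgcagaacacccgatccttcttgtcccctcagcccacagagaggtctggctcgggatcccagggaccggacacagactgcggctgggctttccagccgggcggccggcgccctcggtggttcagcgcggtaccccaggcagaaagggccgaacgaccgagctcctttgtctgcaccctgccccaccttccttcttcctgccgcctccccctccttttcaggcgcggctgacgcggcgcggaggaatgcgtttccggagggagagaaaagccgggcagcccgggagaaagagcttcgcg
Sohlh2, chr3:55181794-55182093, plus strand: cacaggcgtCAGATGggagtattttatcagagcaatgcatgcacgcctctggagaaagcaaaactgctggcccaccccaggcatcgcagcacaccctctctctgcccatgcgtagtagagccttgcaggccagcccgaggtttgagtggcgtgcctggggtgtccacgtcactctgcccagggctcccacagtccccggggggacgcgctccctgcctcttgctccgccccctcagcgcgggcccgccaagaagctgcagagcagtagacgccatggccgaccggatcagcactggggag
Dmrtb1, chr4:107684181-107684480, minus strand: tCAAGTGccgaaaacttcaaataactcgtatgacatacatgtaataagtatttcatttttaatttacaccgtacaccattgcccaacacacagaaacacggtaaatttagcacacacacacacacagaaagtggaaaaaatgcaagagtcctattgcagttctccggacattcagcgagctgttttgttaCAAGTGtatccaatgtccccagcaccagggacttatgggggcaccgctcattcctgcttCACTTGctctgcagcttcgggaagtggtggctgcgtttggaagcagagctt
The Itgb1 window held 0, the Sohlh2 window 1 and the printed Dmrtb1 window 3 such matches, and CANNTG reads the same on both strands. RefSeq windows matched 26 of the 35 genes by symbol, and 24 of their 36 windows (66.7%) held CANNTG, next to 72.3% of all 32851 windows. The fourth sequence is the splice junction of the assembled transcript, 15 bases of the last Ccdc169 exon used (chr3:55171311-55171325) in lower case and 15 bases of the second Sohlh2 exon (chr3:55189121-55189135) in capitals.
Ccdc169 to Sohlh2 junction, plus strand: ggaccagttaaaaagGGCAGAGTAAATCTT

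The levels of the 35 genes covered a wide range. Levels are given as summed FPKM, that is, fragments scaled by transcript length and library size, added over a gene's transcripts and averaged over 12 mice. The 4 genes at 10 or more were Dmrtb1 (317 FPKM), Uchl1 (29.6), Id4 (15.9) and Epcam (12.0). Another 14 lay between 1 and 10, namely Sdc4 (9.36), Itgb1 (7.54), Dmrt1 (6.93), Sohlh2 (5.96), Etv5 (5.04), Pou5f1 (4.51), Sohlh1 (2.95), Taf4b (2.81), Cd9 (2.74), Lin28b (1.89), Itga6 (1.70), Foxo1 (1.21), Tspan8 (1.17) and Bcl6b (1.15). A further 14 lay between 0.1 and 1, namely Elavl2 (0.882), Lin28a (0.840), Lhx1 (0.813), Utf1 (0.691), Zbtb16 (0.544), Nanos3 (0.541), Sall4 (0.396), Nanos1 (0.367), Glis3 (0.303), Thy1 (0.216), Eomes (0.203), Upp1 (0.170), Cdh1 (0.151) and Neurog3 (0.145). The 3 lowest were Shisa6 (0.0746), Nanos2 (0.0451) and Pax7 (0.00826). Dmrtb1 alone made up 68.3% to 74.7% of the summed FPKM of the 35 genes in each mouse and ranked 152 among the 24516 genes, whereas the next gene, Uchl1, ranked 2750.

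**Figure D1:**
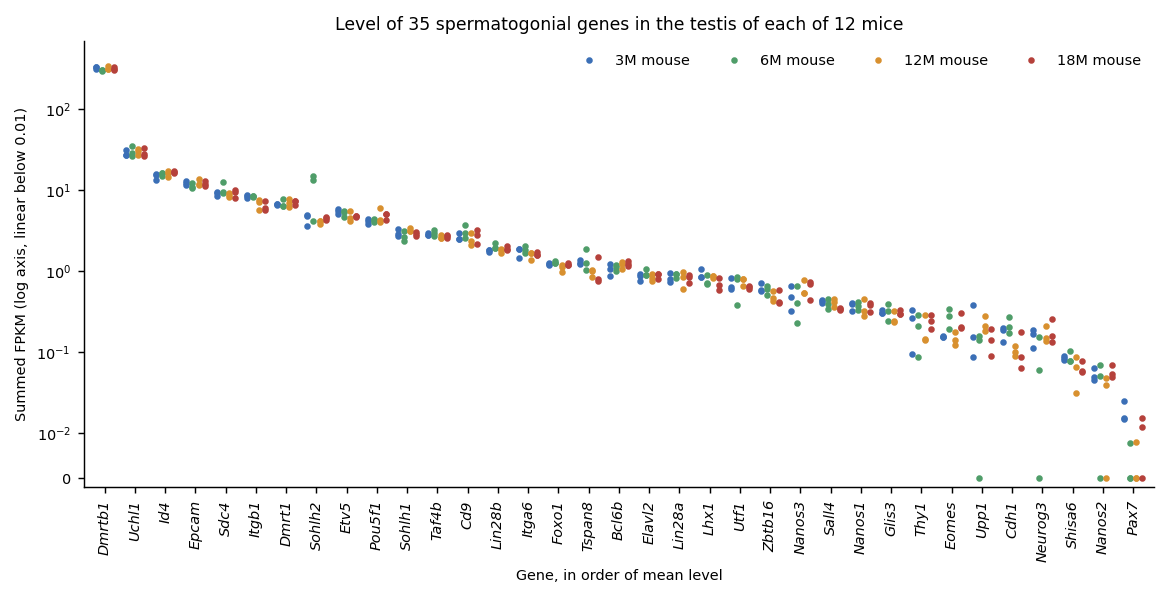
Summed FPKM (vertical axis, logarithmic above 0.01) of each of the 35 genes (horizontal axis, in order of mean level), with 1 point per mouse and the ages in colour. Dmrtb1 stands at 299.7 to 339 FPKM, Pax7 reaches at most 0.0251, and Sohlh2 shows a pair of 6M mice at 13.5 and 14.9.

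At the lower end, the stem cell genes were close to the limit of counting. Pax7, a paired-box factor that marks a rare group of stem cells, had 0 to 6 reads per library and 0 in 5 libraries, where a count of 0 allows up to 3 reads. Nanos2, an RNA-binding protein of undifferentiated spermatogonia, had 0 to 7 reads and 0 in 2 libraries. Neither gene reached the minimum count for the tests, which therefore covered 33 of the 35 genes. Neurog3, a marker of progenitors, and Upp1, a uridine phosphorylase, had 0 to 23 and 0 to 28 reads, each with 0 in 1 library.

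No gene of the 35 passed the tests of age. In a fit of the reads on age in months over all 12 mice (edgeR quasi-likelihood test with Benjamini-Hochberg adjustment over all genes), 0 of the 33 genes had an adjusted p of 0.05 or less, where 0.41% of the 18545 genes tested did. At an unadjusted p of 0.05 or less, 6 of the 33 passed (18.2%), next to 17.5% of all genes. Of these, Itgb1, Zbtb16, Cdh1 and Etv5 had lower values with age (12.1%, against 9.23% of all genes), and Id4 and Pou5f1 higher ones (6.06%, against 8.26%). The share of the 33 genes at this level was thus close to that of all genes.

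The other comparisons gave the same count of 0. In the test of a difference at any age, 0 of 33 genes passed the adjusted threshold (0.0917% of all genes) and 4 had an unadjusted p of 0.05 or less, namely Sohlh2, Itgb1, Eomes and Cdh1 (12.1%, against 10.3%). Between 3M and 18M, 0 of 33 passed (0.0662% of all genes) and 5 had an unadjusted p of 0.05 or less, namely Itgb1, Etv5, Eomes, Sall4 and Id4 (15.2%, against 13.5%). Between 3M and 6M the counts were 0 (0.0497% of all genes) and 2 (Eomes and Sohlh2, 6.06%, against 3.96%). Between 6M and 12M they were 0 (0.0606%) and 5 (Cdh1, Eomes, Itgb1, Sohlh2 and Tspan8, 15.2%, against 8.72%). Between 12M and 18M they were 0 (0.0275%) and 1 (Eomes, 3.03%, against 3.52%). Where Sohlh2 is counted, it entered through an assembled transcript that was assigned reads only in a pair of 6M mice, described below. Counted only on the exons of its RefSeq transcript, its unadjusted p by edgeR was 0.386 at any age. It was 0.367 between 3M and 6M and 0.858 between 6M and 12M. Among the 47 transcripts of these genes that could be tested for a slope on age, 0 passed (0.0103% of all 58289 transcripts) and 3 had an unadjusted p of 0.05 or less (6.38%, against 7.15%). With DESeq2, an alternative test, Itgb1 passed in the slope on age, at any age and between 3M and 18M, and Sohlh2 at any age. By the same test 0 of the 33 passed between 3M and 6M, between 6M and 12M and between 12M and 18M. DESeq2 also called more of all genes than edgeR in each comparison, as counted in the last section. The share of all genes tested is not given for DESeq2. Calls of Itgb1 and Sohlh2 by DESeq2 are therefore not read as a result about these genes.

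Intervals show how closely the change of each gene was known. The 95% confidence interval of the fitted log2 change from 3 to 18 months lay within 0.5 of 0 for 18 of the 33 genes (54.5%, against 63.9% of all genes tested), which included Dmrtb1, Uchl1, Id4, Epcam, Dmrt1, Sohlh1, Foxo1 and Lin28a. The interval was wider than 1 log2 unit for Nanos3, Sohlh2, Neurog3, Utf1, Eomes, Cdh1, Thy1, Upp1 and Shisa6, so their changes were known only roughly. The median fitted change was -0.04 on the log2 scale, next to 0.00 (-0.00285) over all genes, and 20 of the 33 genes had a value below 0 (60.6%, against 50.6%). The fitted coefficient of variation around the slope had a median of 12.9% in these genes and of 11.5% in all genes. This is the square root of the edgeR dispersion, which is moderated across genes and leaves out counting noise. It also holds departures of an age from a straight line.

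**Figure D2:**
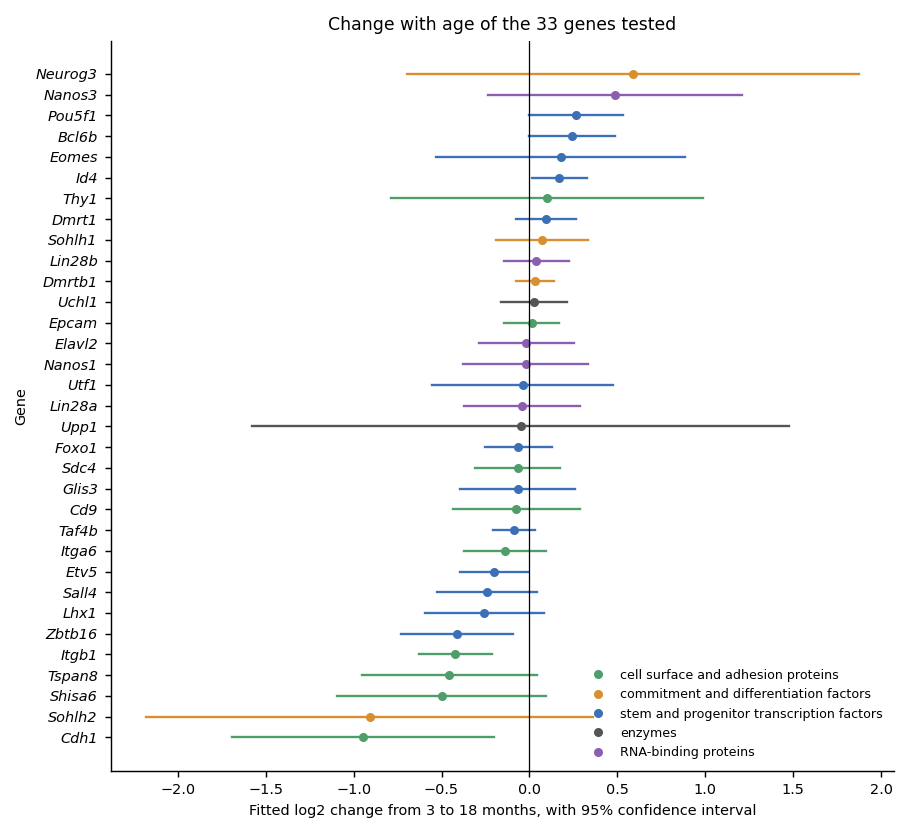
Fitted log2 change from 3 to 18 months (horizontal axis) of the 33 genes tested (vertical axis), with its 95% confidence interval as a line and the role of the gene as the colour. Itgb1 (-0.42) has a short interval away from 0, and Upp1 has the longest one. The value of Sohlh2 (-0.91) includes the assembled transcript that was assigned reads only in a pair of 6M mice.

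The 2 ends of the age range separated without overlap for few genes. All 18M mice were below all 3M mice in CPM (reads scaled to library size) for 4 of the 33 genes, Itgb1, Etv5, Sall4 and Shisa6 (12.1%, against 10.8% of all genes tested). All 18M mice were above all 3M mice for 3 genes, Id4, Lin28b and Eomes (9.09%, against 9.67%). A mean FPKM that increased with each older age was found for 4 of the 18 genes at 1 FPKM or more in some age, Id4, Dmrt1, Pou5f1 and Bcl6b (22.2%, against 6.34% of 13688 genes), and one that decreased with each older age for Etv5 alone (5.56%, against 8.53%). This pattern takes no account of the spread between mice. With medians in place of means, the genes that increased went from 4 to 1 (Bcl6b). Those that decreased went from 1 to 2 (Itga6 and Tspan8, without Etv5). The share of all genes under medians is not given, so the median counts are not read as a result about these genes.

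Among the 14 stem and progenitor transcription factors, 13 were tested, 8 had fitted changes below 0 and 5 above, and the median was -0.06. Zbtb16, a zinc finger protein required to keep stem cells in the testis, had 3.42, 4.08 and 3.27 CPM in the 3M mice, 3.49, 3.83 and 2.84 in the 6M mice, 3.30, 2.74 and 2.53 in the 12M mice and 3.37, 2.48 and 2.37 in those of 18M. A pair of the 18M mice was below all 3M mice and the third lay within their range. Its fitted change was -0.41 (SE 0.15, 95% CI -0.73 to -0.09, adjusted p = 0.197).

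Etv5, an ETS factor that responds to GDNF, the Sertoli cell signal for self-renewal, had 21.8, 25.2 and 23.8 CPM in the 3M mice, 20.01, 24.1 and 22.6 in the 6M mice, 19.6, 24.1 and 18.2 in the 12M mice and 20.4, 20.8 and 20.2 in those of 18M. The 18M values lay close together below those of 3M, with the 6M and 12M mice overlapping both. The fitted change was -0.20 (SE 0.09, 95% CI -0.40 to -0.01, adjusted p = 0.272), and between 3M and 18M it was -0.20 (SE 0.07, adjusted p = 0.318).

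Id4, a helix-loop-helix protein without a DNA-binding region and the factor of this group with the highest level, had 30.0, 28.2 and 24.9 CPM in the 3M mice, 30.7, 28.2 and 29.9 in the 6M mice, 32.7, 27.4 and 30.5 in the 12M mice and 30.1, 31.8 and 33.1 in those of 18M. The lowest 18M mouse exceeded the highest 3M mouse by less than 0.1 CPM. The fitted change was 0.17 (SE 0.07, 95% CI 0.01 to 0.33, adjusted p = 0.253), which corresponds to 12.5% over 15 months.

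Eomes, a T-box factor of a subset of stem cells, was counted with 31 to 87 reads. It had 0.683, 0.662 and 0.658 CPM in the 3M mice, 1.20, 1.42 and 0.788 in the 6M mice, 0.752, 0.607 and 0.529 in the 12M mice and 0.857, 0.848 and 1.29 in those of 18M. The 6M and 18M mice were above all 3M and 12M mice, so the values went up and down between neighbouring ages and the slope was small, 0.18 (SE 0.33, adjusted p = 0.815). Its 2 RefSeq transcripts changed places between mice, with 0% to 100% of the reads on NM_010136.

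The remaining tested factors of this group, Dmrt1, Sall4, Bcl6b, Foxo1, Pou5f1, Utf1, Lhx1, Glis3 and Taf4b, had fitted changes from -0.26 (Lhx1) to 0.27 (Pou5f1, SE 0.12, adjusted p = 0.285). The sum of the FPKM of all 14 factors was 39.6 ± 2.03 for 3M, 40.7 ± 1.88 for 6M, 40.5 ± 1.90 for 12M and 41.4 ± 0.725 for 18M (SD, n = 3 mice each), and the mice of the 4 ages overlapped.

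Among the 9 cell surface and adhesion proteins, all were tested, 7 had fitted changes below 0 and 2 above, and the median was -0.14. Itgb1, the integrin beta chain that pairs with Itga6 in a laminin receptor and is found in most cell types, had 39.8, 41.3 and 38.0 CPM in the 3M mice, 39.2, 40.1 and 39.5 in the 6M mice, 36.1, 34.6 and 27.2 in the 12M mice and 35.02, 29.0 and 27.7 in those of 18M. The 3M and 6M mice lay together, and each of the 12M and 18M mice lay below all of them. All reads were on its 1 transcript, NM_010578.

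The fitted change of Itgb1 over 15 months was -0.42 on the log2 scale, or -25.4% (SE 0.10, 95% CI -0.63 to -0.22), with an adjusted p of 0.0806 by edgeR. Between 3M and 18M it was -0.38 (SE 0.09, adjusted p = 0.288). The slope passed the threshold by DESeq2 (adjusted p = 0.00403) and by edgeR without 12M mouse 3 (0.0383) or without 18M mouse 1 (0.0206), and over 22 alternatives its adjusted p ran from 0.00403 to 0.266 with the same sign. More of all genes also passed by DESeq2 and without 18M mouse 1, as counted in the last section. Itga6, the partner of Itgb1, had a fitted change of -0.14 (SE 0.11, adjusted p = 0.523).

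Among the lists for other cell types, only that of Leydig cells held genes that passed the slope test. Of 6 Leydig cell genes, the steroid-producing cells between the tubules, 3 fell with age at an adjusted p of 0.05 or less and 0 rose, and the median fitted change was -1.15. The summed level of the 6 genes was between 967 and 1118 FPKM in the 3M mice, 900.3 and 1654 in the 6M mice, 741 and 784 in the 12M mice and 681 and 941 in those of 18M, and no gene of the list was under 0.1 FPKM. The genes that fell were Cyp17a1 (-1.46, adjusted p = 2.83e-05), Cyp11a1 (-1.61, 0.00188) and Lhcgr (-1.42, 0.0335), named here after their values were seen. The others did not pass, with Star at -0.87 (adjusted p = 0.0780), Insl3 at -0.48 (0.241) and Hsd3b1 at 0.05 (0.931). Insl3 was the highest of the list (841 FPKM) and so weighs most in the summed level. For 6 endothelial genes the counts that passed were 0 and 0, the median was -0.19 and the sums were 6.02 to 6.62 FPKM at 3M and 5.24 to 6.39 at 18M. At an unadjusted p of 0.05 or less (edgeR slope), 0 of the endothelial genes rose and 2 fell, where 9.23% of all genes fell. Those were Pecam1 (-0.54) and Cdh5 (-0.31). The part of Leydig and endothelial cells in the values of Itgb1 was not tested.

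Cdh1, the adhesion protein E-cadherin of undifferentiated spermatogonia, had 22 to 72 reads per library. It had 0.683, 0.993 and 0.951 CPM in the 3M mice, 1.04, 0.854 and 1.32 in the 6M mice, 0.448, 0.607 and 0.512 in the 12M mice and 0.447, 0.908 and 0.326 in those of 18M. Each 12M mouse lay below all 3M and 6M mice, while 1 of the 18M mice lay within the range of 3M. The fitted change was -0.95 (SE 0.35, 95% CI -1.69 to -0.20, adjusted p = 0.201), and between 6M and 12M it was -1.03 (SE 0.25, adjusted p = 0.495).

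**Figure D3:**
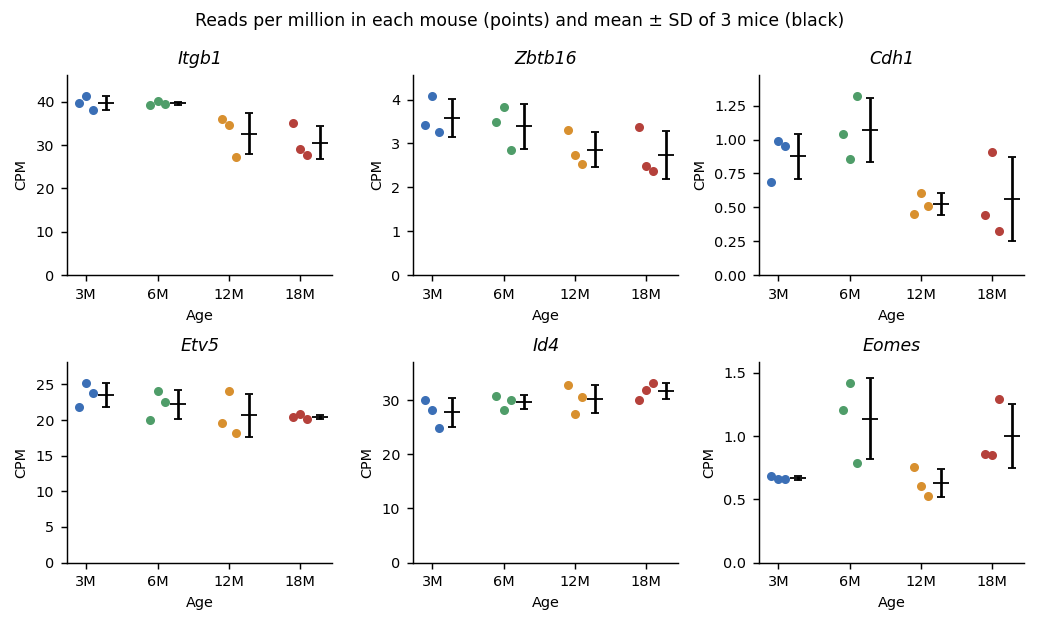
CPM (vertical axes from 0) in each of the 3 mice of each age (horizontal axes), as points, with the mean ± SD of the 3 mice in black, for Itgb1, Zbtb16, Cdh1, Etv5, Id4 and Eomes. Itgb1 lies at 38.0 to 41.3 CPM in all 3M and 6M mice and at 27.2 to 36.1 in the 12M and 18M mice, whereas Eomes is high at 6M and 18M.

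Epcam, an adhesion molecule of spermatogonia and epithelia, had the highest level of this group, with 33.1, 33.03 and 32.0 CPM in the 3M mice, 32.4, 30.6 and 28.4 in the 6M mice, 32.1, 31.2 and 36.3 in the 12M mice and 29.2, 34.1 and 32.2 in those of 18M. The ages overlapped, and the fitted change was 0.01 (SE 0.07, 95% CI -0.15 to 0.17, adjusted p = 0.953). The other 5 surface proteins, Thy1, Tspan8, Sdc4, Cd9 and Shisa6, had fitted changes from -0.50 (Shisa6, SE 0.28, adjusted p = 0.365) to 0.10 (Thy1, SE 0.41, adjusted p = 0.924). The summed FPKM of the group was 35.9 ± 1.06 for 3M, 37.1 ± 2.76 for 6M, 33.3 ± 0.495 for 12M and 33.5 ± 2.14 for 18M (SD, n = 3).

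Of the 6 RNA-binding proteins, 5 were tested, with fitted changes from -0.04 to 0.49 and a median of -0.02. Lin28b, which blocks the maturation of let-7 miRNAs, had the highest level, with 11.4, 11.2 and 10.9 CPM in the 3M mice, 13.9, 11.9 and 11.8 in the 6M mice, 11.7, 11.7 and 10.5 in the 12M mice and 11.6, 13.0 and 11.8 in those of 18M. All 18M mice were above all 3M mice by a small margin, but the 12M mice reached below 3M. Its fitted change was 0.04 (SE 0.09, 95% CI -0.15 to 0.23, adjusted p = 0.850). Its relative Lin28a (-0.04, SE 0.15, adjusted p = 0.914), the neuronal-type protein Elavl2 (-0.02, SE 0.13, adjusted p = 0.957) and Nanos1 (-0.02, SE 0.17, adjusted p = 0.967) were near 0, and Nanos3, with 10 to 40 reads, had 0.49 (SE 0.34, adjusted p = 0.469).

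The 4 commitment and differentiation factors had a median fitted change of 0.05. Dmrtb1, a DM-domain protein that guides the passage from mitosis to meiosis, had 707, 662 and 709 CPM in the 3M mice, 654, 662 and 627 in the 6M mice, 681, 681 and 735 in the 12M mice and 660.3, 684 and 718 in those of 18M. The ages overlapped. The fitted change was 0.03 (SE 0.05, 95% CI -0.07 to 0.14, adjusted p = 0.762), with the smallest fitted coefficient of variation of the 33 genes (6.74%).

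The reads of Dmrtb1 were spread unevenly along the gene. Of its reads, 96.0% were assigned to the assembled transcript MSTRG.14266.1 (class j, 4 exons), whose first exon runs to chr4:107683466, 114 bases past the end of that exon in NM_019872. The mean depth over 12 mice, with both transcripts added, was 153 reads per base on the first exon from the 5′ end, 1939 on the second, 3679 on the third and 3055 on the fourth. The first exon thus had 4.16% of the depth of the third, and 129 to 189 reads per base in each mouse against 1660.0 to 2371 on the second exon. In GENCODE vM21, 1 annotated transcript of Dmrtb1 begins 106 bases upstream of the second exon. The FPKM given above averages over all 4 exons. The promoter window printed for Dmrtb1 lies before the first exon, on which depth was low, and its other RefSeq window lies over the end of that exon.

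**Figure D4:**
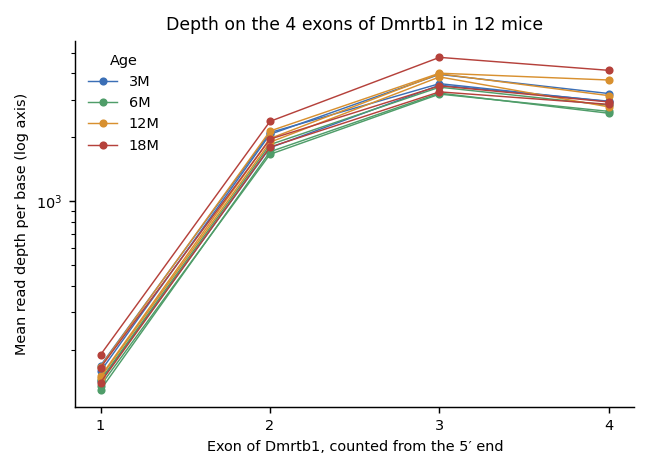
Mean read depth per base (vertical axis, logarithmic) on the 4 exons of Dmrtb1 (horizontal axis, counted from the 5′ end), with both transcripts added, 1 line per mouse and the ages in colour. In all 12 mice the first exon has a depth of 129 to 189 and the third exon a depth of 3186 to 4744.

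Sohlh2, a basic helix-loop-helix factor that works with Sohlh1 in differentiating spermatogonia, had 9.47, 12.5 and 13.2 CPM in the 3M mice, 47.8, 11.2 and 41.6 in the 6M mice, 11.1, 11.1 and 10.2 in the 12M mice and 11.9, 11.6 and 12.5 in those of 18M. A pair of 6M mice, 6M mouse 1 and 6M mouse 3, stood apart from the other 10. Between 3M and 6M the log2 change was 1.52 (SE 0.47, adjusted p = 0.991) and between 6M and 12M -1.63 (SE 0.46, adjusted p = 0.505). The slope on age was -0.91 (SE 0.59, adjusted p = 0.442).

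The excess lay in 1 assembled transcript, MSTRG.12840.3 (chr3:55140038-55209957, 18 exons), which had 1981 reads in 6M mouse 1, 1842 in 6M mouse 3 and 0 in the other 10 mice. Its first 8 exons are those of the neighbouring gene Ccdc169, it passes over the promoter window and the first exon of Sohlh2, and it enters the second exon of Sohlh2 at the junction printed above. Depth on its exons 1 to 8 was 51.0 to 373 reads per base in 6M mouse 1 and 52.9 to 374 in 6M mouse 3. On its exons 9 to 18, which are Sohlh2 exons, depth was 6.25 to 13.1 and 3.94 to 7.42. Most of its reads therefore lay on Ccdc169 exons. These are estimated reads, and whether reads cover the junction in the other 10 mice could not be checked.

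Ccdc169 had 3138 and 3578 reads in these mice and 5176 to 8423 in the other 10. The sum of both genes was 113 and 110.3 reads scaled to the gene total (CPM without TMM) in 6M mouse 1 and 6M mouse 3 and 107 to 150.4 in the others. Counted only on the 11 exons of NM_028937, a count chosen after the data were seen, Sohlh2 had 471, 679 and 722 reads in the 3M mice, 508, 536 and 570 in the 6M mice, 622, 566 and 596 in the 12M mice and 638, 574 and 842 in those of 18M. In CPM this was 11.7 ± 1.98 for 3M, 10.7 ± 0.389 for 6M, 10.8 ± 0.539 for 12M and 12.0 ± 0.455 for 18M (SD, n = 3), so the pair of 6M mice no longer stood apart. With this count the log2 change from 3M to 6M was -0.12 (SE 0.13, adjusted p = 0.991) and the slope on age 0.05 (SE 0.10, 95% CI -0.17 to 0.28, adjusted p = 0.821).

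**Figure D5:**
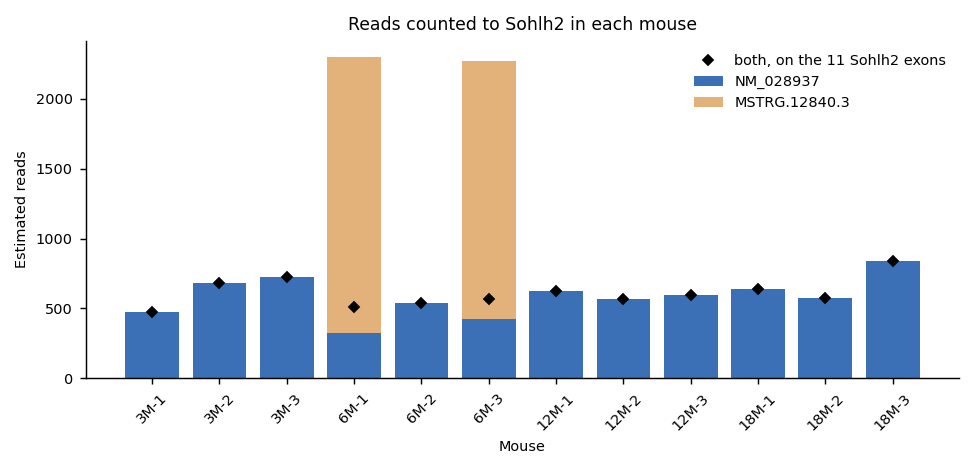
Estimated reads (vertical axis from 0) counted to Sohlh2 in each mouse (horizontal axis), as stacked bars for NM_028937 and MSTRG.12840.3, with diamonds for the reads of both on the 11 exons of NM_028937. The bars of 6M mouse 1 and 6M mouse 3 reach 2301 and 2269, while the diamonds lie between 471 and 842 in all mice.

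Sohlh1, the partner of Sohlh2, had 168 to 287 reads and a fitted change of 0.07 (SE 0.12, 95% CI -0.19 to 0.33, adjusted p = 0.795), and Neurog3 had 0.59 (SE 0.60, adjusted p = 0.637). Of the 2 enzymes, Uchl1, a ubiquitin hydrolase abundant in spermatogonia, had 43.1, 43.3 and 37.7 CPM in the 3M mice, 37.7, 40.6 and 47.0 in the 6M mice, 42.9, 39.0 and 45.9 in the 12M mice and 40.0, 39.2 and 46.9 in those of 18M. The ages overlapped, and its fitted change was 0.03 (SE 0.09, 95% CI -0.16 to 0.21, adjusted p = 0.902). Upp1 had a fitted change of -0.05 (SE 0.71, adjusted p = 0.980), with the widest interval of the 33 genes, from -1.58 to 1.48.

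The assignment of reads to single transcripts varied more between mice than the gene sums did. Of the 35 genes, 21 had 1 transcript and 14 had several, and in 4 the transcript with the most reads was an assembled one of class j (Lin28b, Epcam, Taf4b and Dmrtb1). Epcam had 5 transcripts, and MSTRG.9476.1 had 1258 reads in 3M mouse 1, 809 in 6M mouse 2 and 950 in 18M mouse 3 but 1 to 23 in the other 9 mice. The transcript of Epcam with the most reads, MSTRG.9476.3, had 106, 313 and 410 reads in those 3 mice and 699 to 1211 in the others, while the gene sum stayed between 1469 and 2172 reads. In Uchl1, the RefSeq transcript NM_011670 took 32.9% to 79.7% of the reads of a mouse, and in Lin28b the assembled MSTRG.1535.1 took 62.2% to 100%.

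Other genes of spermatogonia gave a like picture at the adjusted threshold. Of 15 further genes used for stages of spermatogonia or for their response to signals, 0 rose and 0 fell at an adjusted p of 0.05 or less, with a median fitted change of -0.09 and Stra8, a retinoic acid target at the entry into meiosis, at the highest level (6.399 FPKM). Of 9 niche signals, the secreted factors of Sertoli and other cells, 0 rose and 0 fell at that threshold, but the median was -0.39. At an unadjusted p of 0.05 or less (edgeR slope), 0 rose and 3 fell, where 9.23% of all genes fell. Their summed level was 9.35 to 10.2 FPKM at 3M and 6.53 to 8.97 at 18M, with Cxcl12 highest (3.31 FPKM). No gene of 11 spermatocyte genes (median 0.01, highest Sycp3 at 90.8 FPKM), 10 spermatid genes (median 0.20, highest Prm2 at 8272 FPKM), 10 Sertoli genes (median -0.05, highest Inha at 32.8 FPKM), 6 peritubular myoid genes (median -0.18, highest Actg2 at 146 FPKM) or 8 macrophage genes (median -0.17, highest C1qb at 7.77 FPKM) passed the adjusted threshold. Among the myoid genes Acta2 was next at 14.4 FPKM, and only Actg2 had a fitted change above 0 (0.13). At an unadjusted p of 0.05 or less (edgeR slope), 8.26% of all genes rose and 9.23% fell. Rising and falling counts were 1 and 0 for spermatocytes, 4 and 0 for spermatids and 0 and 3 for Sertoli cells. They were 1 and 0 for myoid cells and 0 and 1 for macrophages. The highest of the endothelial genes was Vwf (2.32 FPKM) and of the Leydig genes Insl3 (841 FPKM). Of 6 epididymal genes, 5 were under 0.1 FPKM, with Rnase10 as the exception (2.41 FPKM), and of the 2 that could be tested 0 passed.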

How the data were processed

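Testis RNA of 12 mice was sequenced as paired ends from TruSeq v2 libraries, which carry no strand, so reads of overlapping genes on opposite strands cannot be told apart. Alignment by the authors used HISAT2 and the mm10 genome, and StringTie (1.3.3b per the file headers) assembled and quantified the transcripts. The deposited read counts are estimated counts, which the authors derived from coverage and rounded up. The deposited FPKM values take account of the length of a transcript and the size of the library, and the authors applied no further normalization.

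Reads and FPKM were summed per gene over transcripts of class =, c, j and o. Reads were tested with edgeR 4.0.16 (R 4.3.3; filterByExpr, TMM, quasi-likelihood F-test, Benjamini-Hochberg adjustment over all genes), on age in months over 12 libraries, at any age, and between ages with only the libraries of both. DESeq2 1.42.0 and limma 3.58.1 on log2(FPKM + 1) and log2(FPKM + 0.1) were alternatives, besides other scaling, no filter, other transcript classes, a replicate block and leaving out each library. CPM uses TMM. Python 3.11.15 (pandas 2.3.3, matplotlib 3.10.9) served for sums and plots, and the tests were tried on simulated counts.

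Every gene is given with its level. Values in every mouse are given for the 3 genes with the lowest p in the slope, any-age and 3M versus 18M tests and for the highest gene of each role, with the transcript of most reads where several exist. Of other lists the highest gene is named, and for Leydig cells all 6. The 35 genes and the lists were chosen with earlier results of these data known. The main tests did not pair mice by replicate number. Deviations of same-numbered mice from their age means correlated at -0.05 to 0.11 in 18 pairs, of which 1 was over 0.1. For mice of different numbers they correlated at -0.11 to 0.07 in 36 pairs, of which 0 were over 0.1. These values cannot show whether same-numbered mice were handled together.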

Additional observations from a re-analysis of the deposited data

Results flagged for a closer look

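The transcript table holds 9 transcripts that carry the symbols of 5 of the 35 genes but lie outside the gene sums, 6 antisense to exons (class x) and 3 within introns (class i), and each had more than 3 reads in all 12 mice, above what a count of 0 allows. Without strand, their reads cannot be told apart from reads of the gene where the exons overlap. In Glis3, the intronic MSTRG.10479.1 had a mean of 2.15 FPKM and 321 to 497 reads, while the gene sum had 100 to 174 reads. In Cd9, the antisense MSTRG.17464.2 had 2.83 FPKM and 447 to 735 reads, more than the 145 to 263 of the gene sum, next to MSTRG.17464.1 at 1.70, MSTRG.17463.1 at 1.15 and MSTRG.17462.1 at 0.836 FPKM. In Taf4b, the antisense MSTRG.9570.1 had 1.93 FPKM with 823 to 1116 reads and MSTRG.9570.2 had 0.892 FPKM, where the gene sum had 1022 to 1387 reads. Epcam had the antisense MSTRG.9477.1 at 1.09 FPKM and Dmrtb1 the antisense MSTRG.14267.1 at 0.589 FPKM, both far below their gene sums in reads.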

How the results depend on the processing

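With DESeq2, 1 of the 33 genes passed in the slope on age and between 3M and 18M (Itgb1). At any age 2 passed (Itgb1, Sohlh2). In the transcript slope 2 transcripts passed, NM_010578 of Itgb1 and MSTRG.12840.3 of Sohlh2. The latter was assigned reads in 6M mouse 1 and 6M mouse 3 only, so its call is not read as a change along the ages. Calls over all genes were 568 (edgeR 76) in the slope, 377 (17) at any age, 256 (12) for 3M versus 18M, 69 (9) for 3M versus 6M, 108 (11) for 6M versus 12M and 34 (5) for 12M versus 18M, and over transcripts 1075 (6). The share of all features that DESeq2 called is not given, so its calls are not read further. No filter gave 45 in the slope and 3 transcripts. The replicate block gave 42 in the slope, 9 at any age, 7 for 3M versus 18M, 0 for 6M versus 12M and 3 transcripts, and changed no call of the 33 genes. Only class = gave 11 in the slope, 7 at any age, 19 for 3M versus 18M and 0 for 3M versus 6M, and all classes 7 for 6M versus 12M. One fit of all 12 libraries gave 22, 3, 3 and 0 for the pairs of ages in the order above. With limma the slope gave 40 (both pseudocounts) or 37 (no filter), 3M versus 18M 5 (no filter), 3M versus 6M 5, 5 and 3, and 6M versus 12M 4 (log2(FPKM + 1)) and 1 (no filter).

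Leaving out 1 mouse gave 18 to 193 genes in the slope (without 18M mouse 3 and 18M mouse 1), 8 to 46 at any age, 14 to 25, 11 to 30, 5 to 21 and 5 to 19 between ages in the same order, 3 to 8 transcripts, and 0 to 1 of the 33 genes in the slope (Itgb1), at any age, for 3M versus 6M and for 6M versus 12M (Sohlh2, each without 6M mouse 2, which leaves the pair with MSTRG.12840.3; adjusted p = 3.45e-05, 0.00761 and 0.00214). A continuous change was found in 1 to 5 genes, and in 3 with medians (1 up, 2 down, against 4 and 1 with means). The shares of all genes under these settings are not given, so these counts are not read further.

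With only class = the slope turned for Sohlh2 (0.18), Dmrtb1 (-0.0576), Epcam (-0.60) and Lin28b (-1.65, and -1.30 for 3M versus 18M), whose main transcripts are of class j except in Sohlh2, and on its own exons for Sohlh2 (0.0541). Leaving out 1 mouse turned small values: slopes ran from -0.0965 to 0.34 (Eomes), -0.0231 to 0.0656 (Epcam), -0.0373 to 0.0716 (Uchl1) and -0.0115 to 0.0819 (Lin28b), and 3M versus 18M from -0.0433 to 0.0203 (Dmrtb1), -0.0971 to 0.13 (Sohlh2), -0.0905 to 0.0212 (Epcam) and -0.0632 to 0.0711 (Uchl1). Of the named genes, Itgb1, Zbtb16, Cdh1, Etv5 and Id4 had the same sign under every alternative. Of the 9 genes with an interval wider than 1 log2 unit, 8 had a median of 50 reads or fewer, the exception being Sohlh2.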
